A study of Mus musculus with 20 samples.

Results

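The genes described here encode enzymes that add methyl groups to the lysines and arginines of histones and other proteins, or remove them from lysines. They are the 51 genes whose symbol on the Affymetrix Mouse Genome 430 2.0 array starts with Kdm, Kmt, Setd, Prmt, Ehmt, Suv39h, Nsd or Smyd and a digit, without Kdm2a and Kdm2b. Together they are read by 142 probe sets that carry that symbol alone, and each gene was taken at its brightest probe set. The array has such probe sets for 18193 genes. Of the 14044 genes bright enough in at least 1 population to be tested, 49 belong to the family. Kdm5d and Prmt8 were too dim for the test and are described by their levels.

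RNA came from 10 sorted populations of haematopoietic cells, all from mice of the C57BL/6 background, with 2 biological replicates of each and 20 arrays in all. KSL cells are, in common use, the lineage-negative fraction that carries Kit and Sca-1 and is enriched in stem cells. LinNeg cells lack lineage markers. The 8 mature populations were Erythroblast (Ter119+), B (B220+), CD4T, CD8T, NK (NK1.1+), NKT (CD3ε+ NK1.1+), Neutrophil (Gr-1+) and Monocyte (Mac-1+, labelled monocytes/macrophages). The labels give no treatment or mutation. Each array was made from the RNA of 3000 cells after amplification in 2 cycles. The labels name no age, sex, tissue or animal for a replicate, so p-values measure the spread between these arrays, which may be technical in part.

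Histone methylation marks chromatin according to which residue is modified. Methylation of H3K4 and H3K36 is found at active genes, that of H3K9 and H3K27 at silent ones, and that of H4K20 is tied to chromatin compaction and to the cell cycle. Lysine methyltransferases of this family carry a SET domain. Demethylases belong to a flavin-dependent class, Kdm1, or to the jumonji class, which needs iron and 2-oxoglutarate. Arginine methyltransferases act on histones and on many RNA-binding proteins. In blood formation the family is best known through Kmt2a, which is rearranged in leukaemia, and Nsd2, which is activated in myeloma.

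The marker genes followed the sort labels in most populations. Cd4 stood at 421 and 363 in CD4T, Cd8b1 at 2242 and 2086 in CD8T, Ncr1 at 585 and 737 in NK cells, and Klf1 at 10148 and 7915 in Erythroblast. In Erythroblast the probe set of the globin gene Hba-a1 read only 12.2 and 49.4, although Klf1, Epor (1710 and 1470) and Tfrc (8881 and 6747) were bright. The NK arrays also held myeloid transcripts. The mean log2 level of 4 neutrophil markers was 11.70 and 11.33 in NK cells, 13.87 and 13.59 on the Neutrophil arrays, and 4.12 to 5.41 in B, CD4T and CD8T. On 5 monocyte markers NK (11.03 and 10.88) lay above Monocyte (10.31 and 10.82) and Neutrophil (8.86 and 8.91). The neutrophil markers separated the replicates of LinNeg (4.36 and 9.06) and of NKT (5.40 and 8.48). They were about as high in Monocyte (13.65 and 13.36) as in Neutrophil, and do not tell these populations apart. The 2 markers listed for NKT were hardly higher in NKT (7.99 and 8.32) than in CD4T (7.98 and 8.05). The 3 NK markers were higher in NKT (8.57 and 8.17) than in CD4T (5.88 and 6.04). On 2 basophil and mast cell markers the LinNeg replicates also differed (7.06 and 9.39). A bulk array cannot tell fewer cells of a type from less RNA per cell.

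Promoter sequence is shown for 4 arginine methyltransferase genes that had similar patterns over the populations, for Kdm7a, which had the opposite pattern, and for Kdm6a, which was highest in Erythroblast. Each run holds the 250 bases before the RefSeq start in GRCm38.p6, written 5′ to 3′ on the gene's strand. Capitals mark a motif match.
Prmt1, chr7:44986421-44986670, minus strand: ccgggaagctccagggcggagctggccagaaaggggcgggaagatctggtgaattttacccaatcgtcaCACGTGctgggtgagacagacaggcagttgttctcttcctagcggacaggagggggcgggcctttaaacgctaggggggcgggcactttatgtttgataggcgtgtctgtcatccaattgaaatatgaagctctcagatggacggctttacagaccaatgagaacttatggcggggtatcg
Prmt3, chr7:49778108-49778357, plus strand: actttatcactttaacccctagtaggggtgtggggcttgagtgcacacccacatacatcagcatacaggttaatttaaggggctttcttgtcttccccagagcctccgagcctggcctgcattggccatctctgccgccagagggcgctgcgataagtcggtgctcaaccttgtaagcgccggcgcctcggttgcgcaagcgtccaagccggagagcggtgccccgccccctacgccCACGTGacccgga
Prmt5, chr14:54517471-54517720, minus strand: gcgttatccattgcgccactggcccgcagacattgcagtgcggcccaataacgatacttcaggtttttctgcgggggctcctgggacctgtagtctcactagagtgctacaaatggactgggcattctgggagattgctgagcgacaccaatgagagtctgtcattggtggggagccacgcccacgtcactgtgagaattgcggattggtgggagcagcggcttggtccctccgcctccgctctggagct
Prmt7, chr8:106210804-106211053, plus strand: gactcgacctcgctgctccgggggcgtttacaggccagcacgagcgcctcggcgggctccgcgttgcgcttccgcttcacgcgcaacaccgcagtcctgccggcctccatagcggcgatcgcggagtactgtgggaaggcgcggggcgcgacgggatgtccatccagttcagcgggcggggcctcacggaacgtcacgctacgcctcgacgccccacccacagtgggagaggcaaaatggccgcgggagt
Kdm6a, chrX:18162325-18162574, plus strand: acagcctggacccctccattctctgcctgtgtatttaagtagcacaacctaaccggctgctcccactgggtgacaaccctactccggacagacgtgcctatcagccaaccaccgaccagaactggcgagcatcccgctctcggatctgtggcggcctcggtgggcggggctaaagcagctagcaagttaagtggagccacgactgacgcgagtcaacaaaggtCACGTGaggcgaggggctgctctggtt
Kdm7a, chr6:39206774-39207023, minus strand: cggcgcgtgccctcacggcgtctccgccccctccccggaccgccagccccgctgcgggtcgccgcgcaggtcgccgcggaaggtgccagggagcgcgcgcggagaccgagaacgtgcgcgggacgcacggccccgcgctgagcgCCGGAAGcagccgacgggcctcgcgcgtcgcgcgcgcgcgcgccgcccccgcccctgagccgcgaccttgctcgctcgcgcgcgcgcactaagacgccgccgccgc

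Windows of the 250 bases before the start were searched on both strands. The motifs were an E-box (CACGTG), an ETS motif (CCGGAAG) and a GATA motif (AGATAA), none of which overlaps another in the runs above. In RefSeq, 40 of the 51 genes had a window. Nsd1, Nsd2, Nsd3, Kmt2b, Kmt2e, Kdm3b, Kdm4b, Kdm5a, Kdm6b, Setd1b and Smyd3 are named only. A gene was counted if any of its windows matched, while the shares of all windows count single windows. The gene counts and these shares are therefore unlike measures and do not show enrichment. The E-box was found in 5 of the 40 genes (Ehmt2, Kdm4c, Kdm6a, Prmt1 and Prmt3) and in 6.02% of all 32851 windows. The ETS motif was found in 6 (Kdm3a, Kdm4d, Kdm7a, Prmt2, Setd4 and Setd6) and in 6.91% of all windows. The GATA motif was found in 4 (Kdm4c, Kdm5d, Kdm8 and Setd5) and in 9.99% of all windows. Prmt1 and Prmt3 have an E-box, 181 and 13 bases before the start, while Prmt5 and Prmt7 have none of the 3 motifs in the bases shown. The median window of the family held 19 CpG pairs (49 windows, since some genes have several), against 6 over all windows, and the Kdm7a run shown holds 56. A match describes the letters and does not show binding.

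Nearly all of the family differed among the populations, as did most genes at large. The moderated F test of limma over the 10 populations called 46 of 49 members, and 76.5% of all genes tested. Kdm4a (adjusted p = 0.312), Setd5 (0.242) and Smyd1 (0.189) were not called. The median distance between a member's highest and lowest population was 1.85 on the log2 scale, against 2.13 over all genes. The widest distances were those of Kdm6b (6.65), Smyd2 (6.09) and Prmt7 (5.40). Neutrophil was the lowest population for 15 members (30.6%, against 20.4% of all genes) and Monocyte for 7 (14.3%, against 6.24%). Erythroblast was the highest population for 11 members (22.4%, against 24.7% of all genes) and the lowest for 13 (26.5%, against 26.9%).

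**Figure D1:**
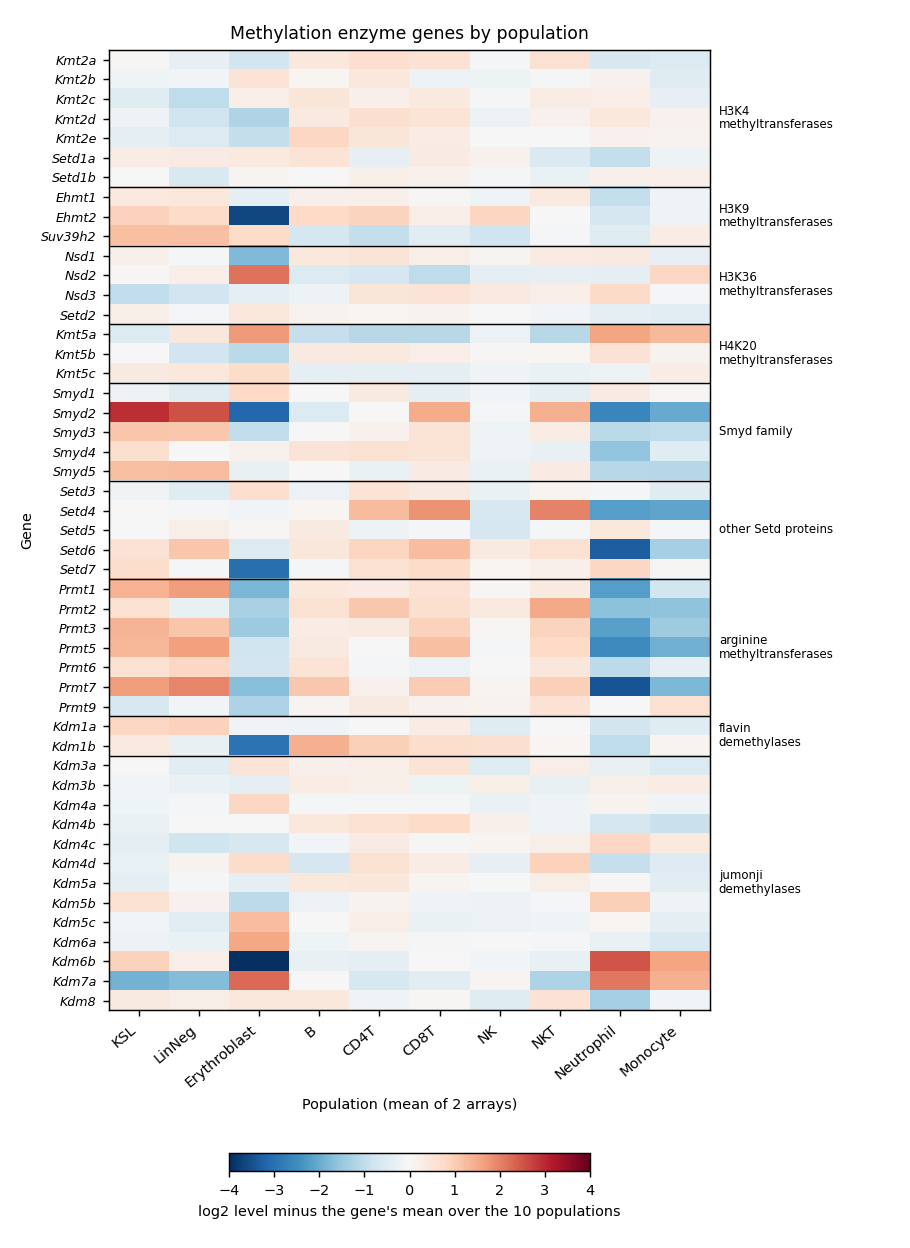
Heat map of the 49 members tested (rows, grouped by the residue or family named at the right) in the 10 populations (columns, mean of 2 arrays). Colour gives the log2(intensity + 6.75) level minus the gene's own mean over the 10 populations, with Kdm6b in Erythroblast beyond the end of the scale and shown at its end colour; Prmt1, Prmt3, Prmt5, Prmt7 and Smyd2 are high in KSL and LinNeg and low in Neutrophil and Monocyte, while the largest single departures of Kdm6b and Ehmt2 are in Erythroblast.

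In 8 comparisons a member was called at an adjusted p under 0.05, with Benjamini-Hochberg adjustment over all genes tested, and a log2 difference of at least 1. Where several populations stood on a side, each had equal weight, and the spread among them does not enter the p. For KSL against LinNeg no member was called by limma in either direction, where 2.95% of all genes were called higher and 2.35% lower, and 8 members had an unadjusted p under 0.05. Kmt5a came nearest, with 268 and 281 in KSL against 629 and 487 on the LinNeg arrays (log2 difference -0.995 ± 0.23, adjusted p = 0.0108), and its arrays did not overlap. Leaving out LinNeg replicate 2, the array with neutrophil markers, gave 1 member called lower. Leaving out KSL replicate 2 gave 1 called higher.

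For KSL against the mean of the mature populations, 11 members were called higher (22.4%, against 15.8% of all genes) and 2 lower (4.08%, against 6.87%). The 11 were Smyd2, Smyd3, Smyd5, Prmt1, Prmt3, Prmt5, Prmt7, Suv39h2, Ehmt2, Kdm1a and Kdm6b, and the 2 were Kdm7a and Nsd3. The median log2 difference of the members was 0.08, against 0.06 over all genes. In the same comparison 7 of 9 proliferation genes, Mcm2 and Cdk1 among them, were higher in KSL, and the part of proliferation in the members' differences was not tested. Without Erythroblast 2 of these calls were lost, where Kdm6b had a log2 difference of 0.49 (adjusted p = 0.101) and Ehmt2 one of 0.64 (adjusted p = 0.00165), below the threshold of 1.

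For the mean of the lymphoid cells (B, NK, NKT and both T populations) against that of Neutrophil and Monocyte, 14 members were higher (28.6%, against 17.4% of all genes) and 3 lower (6.12%, against 11.9%). The 14 were Prmt1, Prmt2, Prmt3, Prmt5, Prmt7, Smyd2, Smyd3, Smyd4, Smyd5, Setd4, Setd6, Kmt2a, Kdm1b and Kdm4b. The 3 were Kmt5a, Kdm6b and Kdm7a. The median difference was 0.40 for members and 0.10 over all genes, a shift that quantile normalization brought to 0.00 over all genes. Although the NK arrays held myeloid markers, the calls were the same 17 with NK left out. The proliferation genes ran the other way here, with 6 of 9 lower in the lymphoid populations.

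Within the lymphoid populations few members were called, and the shares of all genes called were small there too. For B against T (the mean of CD4T and CD8T) none was higher (5.82% of all genes) and 2 were lower, Setd4 and Smyd2 (4.08%, against 7.01%); limma gave 9 members an unadjusted p under 0.05. For NK against NKT, Kdm7a was higher (2.04%, against 6.73%), and Setd4, Smyd2, Prmt2 and Kdm8 were lower (8.16%, against 4.39%). In that comparison limma gave 18 members an unadjusted p under 0.05. The myeloid markers named above were high in NK. Without NKT replicate 2, the NKT array with myeloid markers, Kdm7a and Setd4 kept their calls, while Kdm8, Prmt2 and Smyd2 lost theirs (adjusted p = 0.107, 0.0753 and 0.0529). For CD4T against CD8T none was higher (2.08% of all genes) and Prmt5 and Smyd2 were lower (4.08%, against 1.08%); limma gave 6 members an unadjusted p under 0.05. Array median centring moved the share of all calls that were higher in CD4T to 55.1%, against 65.8% with the deposited scaling.

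For Neutrophil against Monocyte, Kdm5b was higher (2.04%, against 2.58% of all genes) and 7 members were lower (14.3%, against 9.46%). The 7 were Kdm1b, Kdm8, Nsd2, Prmt1, Prmt7, Setd6 and Smyd4. Only Prmt1 and Setd6 kept their call whichever of the 4 arrays was left out. Of the 9 proliferation genes 8 were lower in Neutrophil, and their part in the members' differences was not tested.

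Erythroblast stood apart from all other populations, with no array correlating above 0.708 with one of another population, against 0.953 to 0.972 between replicates. Against the mean of the other 7 mature populations, 6 members were higher (12.2%, against 17.5% of all genes) and 15 were lower (30.6%, against 28.4%), both near or below the share of all genes. The 6 were Nsd2, Kdm7a, Kmt5a, Kdm6a, Kdm5c and Suv39h2. The 15 were Kdm6b, Ehmt2, Setd7, Kdm1b, Smyd2, Nsd1, Prmt1, Prmt9, Kmt2d, Prmt2, Prmt7, Kmt5b, Prmt3, Kmt2e and Kdm5b. The median difference was -0.32 for members and -0.13 over all genes, the second of which became 0.03 under quantile normalization. All 9 proliferation genes were higher in Erythroblast, with a mean log2 level of 11.36 and 11.33 in its 2 arrays against 6.31 to 9.32 in the arrays of the other mature populations.

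**Figure D2:**
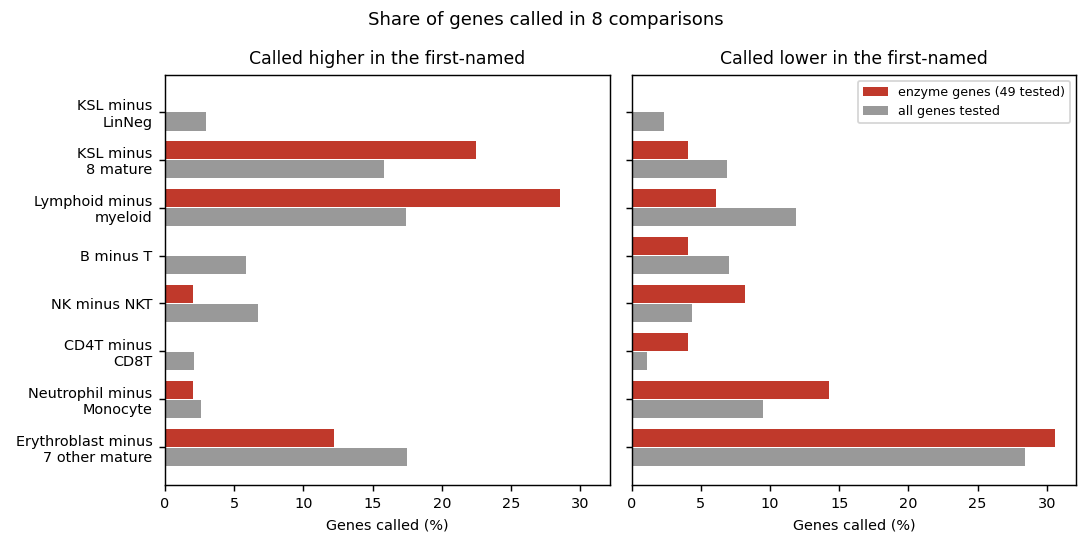
Bars give the percent of genes called in each of 8 comparisons, higher (left) or lower (right) in the population or mean named first, for the 49 enzyme genes tested (red) and for all 14044 genes tested (grey). The enzyme genes exceed all genes most in the lymphoid minus myeloid comparison, at 28.6% against 17.4% called higher.

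Called against each of the other 9 populations, 2 members were higher in 1 population (10.6% of all genes were) and 8 were lower in 1 (14% of all genes were). Kdm6a and Nsd2 were higher in Erythroblast. Ehmt2, Kdm1b, Kdm6b, Nsd1 and Setd7 were lower in Erythroblast, and Prmt7, Setd6 and Smyd4 were lower in Neutrophil. By population, 6.52% of all genes were higher and 10.4% lower in Erythroblast, and 3.13% were lower in Neutrophil.

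Of 7 arginine methyltransferases tested, 4 were higher in KSL than in the mature mean (15.8% of all genes were), 5 were higher in lymphoid than in myeloid cells (17.4% of all genes), and 5 were lower in Erythroblast than in the mean of the other mature populations (28.4% of all genes), with none called in the opposite direction. Their median log2 differences were 1.67, 2.30 and -1.42 in these comparisons. Of the 5 called lower in Erythroblast, only Prmt9 had its lowest population mean there. Prmt1, Prmt2, Prmt3 and Prmt7 were lowest in Neutrophil, so their Erythroblast calls do not set Erythroblast below the myeloid populations. Carm1, an arginine methyltransferase outside the symbol rule, was called higher in Erythroblast. With the mean of all probe sets of a gene, the Erythroblast calls of Prmt3, Prmt7 and Prmt9 were lost, as was the KSL call of Prmt7. Prmt1 carries out most asymmetric dimethylation of arginine in the cell. Its intensity was 532 and 408 in KSL, 680 and 459 on the LinNeg arrays, 28.8 and 65.7 in Erythroblast, 160 to 270 in the lymphoid arrays, 28.7 and 35.7 on the Neutrophil arrays, and 114 and 87.7 in Monocyte. Both progenitor fractions lay above every mature array, and Neutrophil lay below Monocyte (log2 difference -1.46 ± 0.29 SE, adjusted p = 0.00135).

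Prmt5, the main enzyme of symmetric arginine dimethylation, showed a similar pattern. It read 309 and 351 in KSL, 468 and 351 on the LinNeg arrays, 70.6 and 69.2 in Erythroblast, 115 to 333 in the lymphoid arrays, 18.5 and 13.6 on the Neutrophil arrays, and 32.2 and 24.9 in Monocyte. CD8T (271 and 333) reached the level of KSL, and CD4T (121 and 132) lay below CD8T by a log2 difference of -1.20 ± 0.23 (adjusted p = 0.00391), a call that was lost without CD4T replicate 1 (adjusted p = 0.0532) or CD8T replicate 2 (0.066). Over the lymphoid and myeloid populations the log2 difference was 2.69 ± 0.14 (adjusted p = 2.81e-12), without overlap. The only probe set of Prmt5 is of a kind that can bind related transcripts, so its calls could not be set against another probe set.

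Prmt3, which methylates the ribosomal protein Rps2, had 598 and 672 in KSL, 545 and 509 on the LinNeg arrays, 84.2 and 86.5 in Erythroblast, 215 to 481 in the lymphoid arrays, 28.9 and 80.5 on the Neutrophil arrays, and 80.0 and 94.3 in Monocyte. The lymphoid arrays all lay above the myeloid ones (2.30 ± 0.17, adjusted p = 5.5e-10). Prmt7, an enzyme that makes monomethylarginine, had 330 and 338 in KSL, 446 and 369 on the LinNeg arrays, 8.16 and 67.3 in Erythroblast, 93.4 to 231 in the lymphoid arrays, 5.61 and 1.02 on the Neutrophil arrays, and 21.9 and 27.0 in Monocyte. The Neutrophil values lie below the pseudocount of 6.75, so the log2 difference of -1.67 ± 0.46 from Monocyte (adjusted p = 0.0143) understates a ratio of intensities. That call was lost without Monocyte replicate 2 (adjusted p = 0.0934) or Neutrophil replicate 2 (0.117). The 2 Erythroblast arrays disagreed, and without replicate 1 the difference of Prmt7 from the other mature populations was -0.26 (adjusted p = 0.413), against -1.42 ± 0.35 with both.

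Prmt2, which also serves as a nuclear receptor coactivator, was distributed differently. It had 144 and 184 in KSL, 93.8 and 77.2 on the LinNeg arrays, 43.4 and 34.4 in Erythroblast, 122 to 320 in the lymphoid arrays, 16.9 and 46.7 on the Neutrophil arrays, and 31.5 and 29.0 in Monocyte. NKT (320 and 304) was highest and KSL was within the lymphoid range. NK (122 and 162) lay below NKT by a log2 difference of -1.11 ± 0.31 (adjusted p = 0.0181), a call lost without any of 3 of these 4 arrays. The lymphoid arrays lay above the myeloid ones by 2.47 ± 0.18 (adjusted p = 7.66e-10). Prmt6, which methylates H3 at arginine 2, lay between 12.7 and 105 on all arrays and was called in none of the 8 comparisons. Prmt9, which acts on a splicing factor, had 61.2 and 46.2 in Erythroblast against 96.4 to 248 in the other mature arrays (-1.52 ± 0.25, adjusted p = 2.19e-05), but its difference was -0.48 with the mean of all probe sets (adjusted p = 0.048). The further probe sets of Prmt9 are below the brightness needed for the test. Prmt8, known from the brain, read 1.11 to 20.3 in all 20 arrays and was not tested.

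**Figure D3:**
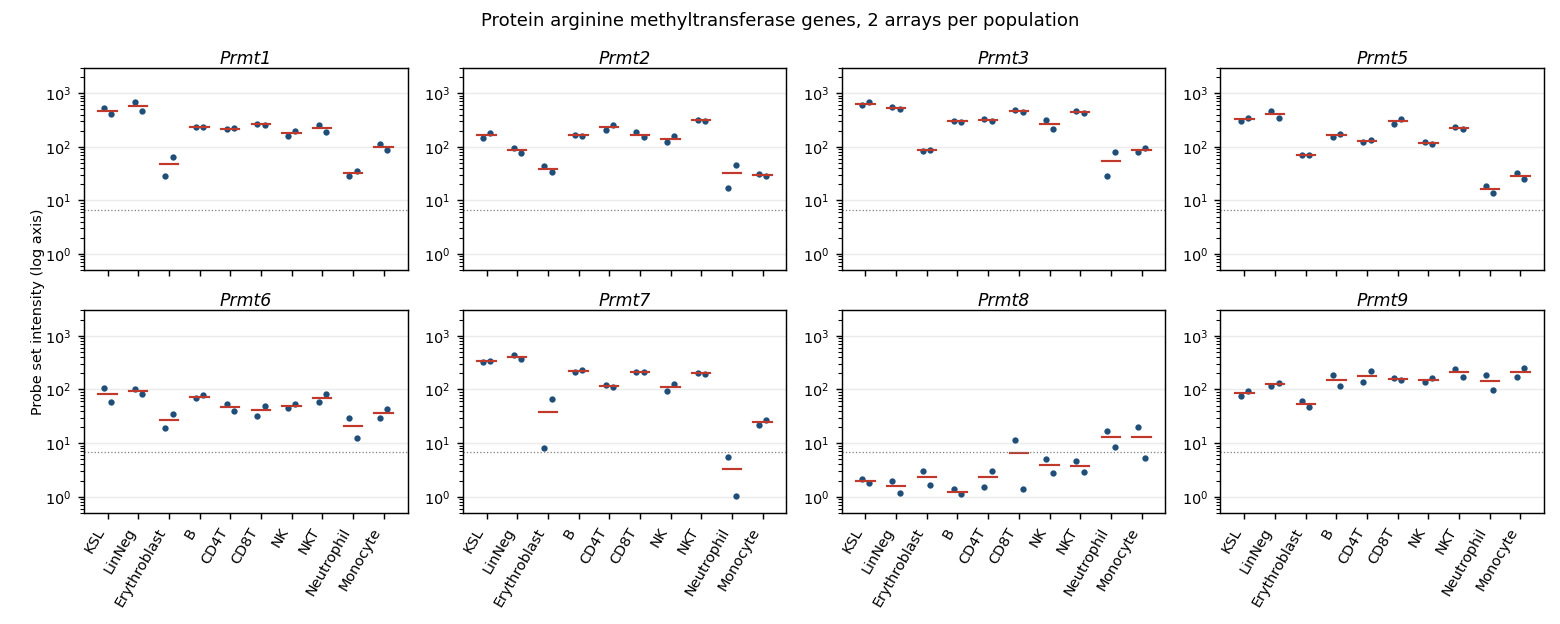
Probe set intensity (log axis) of the 8 arginine methyltransferase genes in each of the 20 arrays. Points are the 2 arrays of a population, red lines their mean, and the dotted line is the pseudocount of 6.75; Prmt1, Prmt3, Prmt5 and Prmt7 are lowest in Neutrophil, and Prmt8 is near the dotted line throughout.

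The Smyd proteins are SET enzymes split by a MYND zinc finger, several of which act outside the nucleus. Of 5 tested, 3 were higher in KSL than in the mature mean (15.8% of all genes were) and 4 were higher in lymphoid than in myeloid cells (17.4% of all genes), with none lower in either. Both counts include Smyd5, whose probe sets disagreed. Smyd2, which methylates p53 and other proteins besides histones, had 635 and 676 in KSL, with 499 and 488 on the LinNeg arrays. It had 2.56 and 3.33 in Erythroblast, 67.0 and 38.7 in B, 98.2 and 60.5 in CD4T, 230 and 238 in CD8T, 77.8 and 72.0 in NK cells, and 235 and 206 in NKT cells. Neutrophil had 3.04 and 13.5, and Monocyte 6.49 and 26.3. Every progenitor array lay above every mature array, and KSL exceeded the mature mean by 3.64 ± 0.30 (adjusted p = 1.82e-08), the largest difference of a member in that comparison.

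Within the lymphoid populations Smyd2 fell into a higher pair, CD8T and NKT, and a lower trio, B, CD4T and NK. The differences were -1.52 ± 0.39 for CD4T minus CD8T (adjusted p = 0.0349), -1.47 ± 0.39 for NK minus NKT (0.0136) and -1.30 ± 0.34 for B minus T (0.00962). The first 2 calls were lost whenever any 1 of their 4 arrays was left out, the third without B replicate 2 (adjusted p = 0.189), and all 3 with a pseudocount at the 5th percentile. Smyd3, linked to cytoplasmic kinase signalling, had 156 and 113 in KSL against 16.2 to 109 in the mature arrays. Smyd5, which acts on H4K20, had 202 and 206 in KSL against 25.8 to 119 in the mature arrays, but its probe set is of a kind that can bind related transcripts. Its 2 plain probe sets are dim and disagreed on KSL. The brighter of them gave -0.21 (adjusted p = 0.664) and the other 1.88, in place of 1.51. For lymphoid minus myeloid they gave 0.04 (adjusted p = 0.916) and 0.36, in place of 1.15. The mean of all probe sets of Smyd5 kept the call in KSL. Smyd4 had 9.47 and 12.1 in Neutrophil against 33.4 and 28.5 in Monocyte (-1.11 ± 0.35, adjusted p = 0.0322), a call lost on leaving out any of these 4 arrays. Smyd1, a muscle gene, ran from 20.2 to 145 and was called in no comparison.

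Over the 10 population means, Prmt1, Prmt3, Prmt5, Prmt7, Smyd2, Smyd3, Smyd5 and Setd6, a group put together after their values were seen, had Pearson correlations of 0.747 to 0.977 in all 28 pairs, and of 0.748 to 0.987 without Erythroblast. Kdm7a ran opposite to Prmt3 (-0.962), Smyd2 (-0.972) and Prmt1 (-0.957). These are descriptions over 10 points that share their arrays and scaling.

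The remaining Setd proteins act mostly on substrates other than histones. Setd4, which is linked to cell quiescence, had 77.4 and 93.8 in KSL, 67.6 and 103 on the LinNeg arrays, 76.1 and 84.3 in Erythroblast and 67.9 and 123 in B. It had 192 and 246 in CD4T, 334 and 310 in CD8T, 45.6 and 63.5 in NK cells, 336 and 395 in NKT cells, 11.3 and 16.4 on the Neutrophil arrays, and 7.40 and 26.8 in Monocyte. The 3 populations that carry CD3 lay above all others. Setd4 was lower in NK than in NKT (-2.61 ± 0.36, adjusted p = 3.48e-05) and lower in B than in T (-1.47 ± 0.31, adjusted p = 0.00182), the second of which was lost without B replicate 1 (adjusted p = 0.0868). All 3 probe sets of Setd4 gave the lymphoid over myeloid difference the same sign (3.05, 2.02 and 1.75).

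Setd6, which methylates the NF-κB subunit RelA, had 0.655 and 16.2 in Neutrophil against 34.0 and 55.6 in Monocyte (-1.95 ± 0.39, adjusted p = 0.00153) and 140 to 351 in the lymphoid arrays. The Neutrophil arrays were the lowest of the 20. One further probe set of Setd6 had the same sign (-0.98) and the other the opposite sign (0.72). Setd7, which monomethylates H3K4 and many other proteins, had 13.0 and 38.2 in Erythroblast against 220 to 466 in the other mature arrays (-3.37 ± 0.21, adjusted p = 4.49e-11). The Erythroblast arrays lay below all 18 others, the lowest of which was a LinNeg array at 196. Its other probe set above the filter differed by -0.09. Setd3, the actin histidine methyltransferase, and Setd5 were called in no comparison.

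The 7 genes grouped here as H3K4 methyltransferases include Kmt2e, described below as a reader of that mark. Of the 7, 1 was higher in lymphoid than in myeloid cells (17.4% of all genes were), 2 were lower in Erythroblast (28.4% of all genes), and no other comparison called any. Neither count stands apart from the share of all genes. Kmt2a, known as MLL1, had 238 to 478 in the lymphoid arrays against 152 and 174 in Neutrophil and 175 and 172 in Monocyte (1.03 ± 0.12, adjusted p = 3.79e-07). The groups did not overlap, but the difference is close to the threshold and fell below it without any of 4 single arrays (B replicate 2, CD4T replicate 2, CD8T replicate 1 or Neutrophil replicate 2) and under either other scaling, with 0.94 as its lowest value. Kmt2d, which methylates H3K4 at enhancers, had 216 and 182 in Erythroblast against 355 to 728 in the other mature arrays (-1.50 ± 0.14, adjusted p = 8.61e-09). Its other probe set differed by 2.56 in the opposite direction, and the mean of both by 0.53 (adjusted p = 0.0607). Kmt2e, a reader of H3K4 methylation, had 288 and 465 in Erythroblast against 622 to 1285 elsewhere among mature arrays (-1.22 ± 0.16, adjusted p = 1.12e-06), and -0.88 without Erythroblast replicate 1. Kmt2b, Kmt2c, Setd1a and Setd1b were called in none of the 8 comparisons.

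Among the H3K9 methyltransferases, Ehmt2 (also called G9a, the main H3K9 dimethylase) had 6.31 and 6.99 in Erythroblast, at the pseudocount. All other arrays were between 97.6, in Neutrophil, and 311, in KSL, so Erythroblast lay far below them (-3.91 ± 0.15 against the other mature populations, adjusted p = 2.19e-14). Ehmt2 has no other probe set above the filter. Ehmt1, its partner in one complex, had 263 and 199 in Erythroblast against 139 to 403 in the other mature arrays and was not called (-0.32 ± 0.14). Suv39h2, which trimethylates H3K9 in heterochromatin, was dim. It had 45.0 and 31.2 in KSL, 28.7 and 48.2 on the LinNeg arrays, and 32.5 and 19.0 in Erythroblast, against 1.59 to 23.4 in the other mature arrays. Its Erythroblast call (1.18 ± 0.40, adjusted p = 0.0159) was lost without Erythroblast replicate 1 (adjusted p = 0.199), and its KSL call (1.51 ± 0.40, adjusted p = 0.00485) without KSL replicate 1 (0.0978).

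Of 4 H3K36 methyltransferases, 1 was higher and 1 lower in Erythroblast (17.5% and 28.4% of all genes were). Nsd2, an H3K36 dimethylase, had 499 and 481 there. The other arrays ran from 41.4 in CD8T to 230 in Monocyte, with no overlap (2.53 ± 0.22 against the other mature populations, adjusted p = 4.57e-09; 1.34 ± 0.29 against Monocyte, the nearest, adjusted p = 0.000633). All 4 further probe sets above the filter had the same sign, with differences of 0.60 to 2.14. Nsd1, which makes the same mark, had 90.1 and 71.6 in Erythroblast against 214 to 412 in all other arrays (-1.99 ± 0.13, adjusted p = 9.85e-11), and its 2 further probe sets had the same sign, the brighter with a difference of -1.46. Nsd3 was lower in KSL, with 521 and 488 against 690 to 1823 in the mature arrays (-1.19 ± 0.14, adjusted p = 1.95e-06), without overlap, and 5 further probe sets differed by -1.14 to -1.55. Setd2, the H3K36 trimethylase, was called in no comparison.

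Of the H4K20 methyltransferases, Kmt5a (also called Set8 or Pr-Set7, the monomethylase) had 268 and 281 in KSL, 629 and 487 on the LinNeg arrays, 1457 and 1249 in Erythroblast, 1312 and 1131 on the Neutrophil arrays, and 1129 and 894 in Monocyte. The lymphoid arrays ran from 141 to 373, all below the myeloid ones (-2.32 ± 0.14, adjusted p = 2.71e-11). Further probe sets of Kmt5a above the filter had the same sign in that comparison. The brightest of them gave -1.95, and the dimmer ones only -0.33 and -0.12. Erythroblast was not shown to differ from Neutrophil, nor Neutrophil from Monocyte (adjusted p = 0.629 and 0.472), and Monocyte lay above LinNeg (adjusted p = 0.00594). Within the lymphoid populations NK was highest (323 and 373), and its myeloid markers are given above. Kmt5b had 107 and 87.4 in Erythroblast against 201 to 341 in the other mature arrays (-1.34 ± 0.18, adjusted p = 2.36e-06). Kmt5c, which with Kmt5b makes di- and trimethylated H4K20, was not called, and its Erythroblast difference was 0.93 ± 0.17 (adjusted p = 7.04e-05).

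The flavin demethylases Kdm1a (LSD1) and Kdm1b (LSD2) remove H3K4 methylation. Kdm1a had 473 and 520 in KSL against 146 to 359 in the mature arrays (1.04 ± 0.14, adjusted p = 5.94e-06), without overlap, and fell below the threshold at 0.97 without KSL replicate 2. Kdm1b had 8.22 and 1.81 in Erythroblast, 24.7 and 51.6 in Neutrophil, 83.1 and 90.7 in Monocyte, and 72.9 to 257 in the lymphoid arrays. The Erythroblast arrays were the lowest of all 20 (-3.35 ± 0.26 against the other mature populations, adjusted p = 1.02e-09).

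Of 13 jumonji demethylases tested, 1 was higher and 1 lower in KSL than in the mature mean (15.8% and 6.87% of all genes were). In lymphoid against myeloid cells 1 was higher and 2 lower (17.4% and 11.9% of all genes), and in Erythroblast 3 were higher and 2 lower (17.5% and 28.4% of all genes). These counts are near or below the shares of all genes. Kdm6b (JMJD3) removes H3K27 methylation and is known as a gene induced in activated macrophages. It had 358 and 342 in KSL, 190 and 257 on the LinNeg arrays, 7.73 and 1.06 in Erythroblast, 126 to 229 in the lymphoid arrays, 1285 and 882 on the Neutrophil arrays, and 647 and 475 in Monocyte. Both myeloid populations lay above the lymphoid ones (-2.25 ± 0.18 for lymphoid minus myeloid, adjusted p = 2.32e-09), and Erythroblast lay below every other array (-4.58 ± 0.23 against the other mature populations, adjusted p = 1.61e-12). Its 2 further probe sets above the filter had the same sign in both comparisons.

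Kdm7a, which removes H3K9 and H3K27 methylation, had 77.7 and 97.1 in KSL, with 88.8 and 109 on the LinNeg arrays. It had 1753 and 1563 in Erythroblast, 122 to 390 in the lymphoid arrays, 1726 and 1293 on the Neutrophil arrays, and 890 and 937 in Monocyte. The progenitors were the lowest and the erythroid and myeloid cells the highest, with Erythroblast and Neutrophil not shown to differ (adjusted p = 0.599). KSL lay below the mature mean (-2.34 ± 0.16, adjusted p = 2.52e-09), and 2 further probe sets differed by -1.55 and -2.74. NK (342 and 390) lay above NKT (165 and 122) by 1.32 ± 0.22 (adjusted p = 0.000219), and by 0.45 with the mean of all probe sets (adjusted p = 0.235). In that comparison its further probe sets above the filter gave 1.42 and 0.18. The mean also includes those below the filter, at -0.07 and -0.61.

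Kdm6a (UTX), the X-linked relative of Kdm6b, had 672 and 732 in Erythroblast, and the other 18 arrays lay between 147 and 280 without overlap (1.72 ± 0.16 against the other mature populations, adjusted p = 1.57e-08). In the order of the other 9 populations, no neighbours were shown to differ (adjusted p of 0.204 and above). Only neighbours are compared here, so populations further apart in that order may differ. Of 3 further probe sets above the filter, 2 agreed in sign (2.41 and 1.48) and 1, the dimmest, did not (-0.86). Kdm5c, the X-linked H3K4 demethylase, had 705 and 605 in Erythroblast against 187 to 336 in the other mature arrays (1.34 ± 0.13, adjusted p = 3.5e-08). Its 7 further probe sets differed by -0.33 to 0.64, and the mean of all probe sets by 0.34. The correlation of Kdm5c with Kdm6a over the population means was 0.921, and 0.496 without Erythroblast. Kdm5d, the Y-linked relative of Kdm5c, read 1.71 to 22.1 in all 20 arrays. The Y-linked Eif2s3y read 0.509 to 15.3, while Xist, which silences 1 X chromosome in females, read 1293 to 4411, lowest in Neutrophil (1293 and 1355).

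Kdm5b, another H3K4 demethylase, had 360 and 378 in Neutrophil against 177 and 159 in Monocyte (1.11 ± 0.27, adjusted p = 0.00647), a call that was lost without Monocyte replicate 2 (adjusted p = 0.0552). In Erythroblast it had 114 and 66.5, and its difference of -1.09 ± 0.20 (adjusted p = 0.000107) was below the threshold of 1 in size without Erythroblast replicate 2 (-0.73), with quantile normalization (-0.66) and with array median centring (-0.99). Kdm4b, which removes H3K9 methylation, had 14.4 to 62.7 in the lymphoid arrays against 8.53 to 17.5 in the myeloid ones (1.13 ± 0.25, adjusted p = 0.000726), with overlap. Kdm8 had 30.5 and 46.9 in NK against 87.6 and 85.6 in NKT cells (-1.06 ± 0.32, adjusted p = 0.0294), and 20.9 and 15.7 in Neutrophil against 61.5 and 42.0 in Monocyte (-1.21 ± 0.32, adjusted p = 0.0119). Both Kdm8 calls were lost on leaving out single arrays. Kdm3a, Kdm3b, Kdm4a, Kdm4c, Kdm4d and Kdm5a were called in none of the 8 comparisons.

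**Figure D4:**
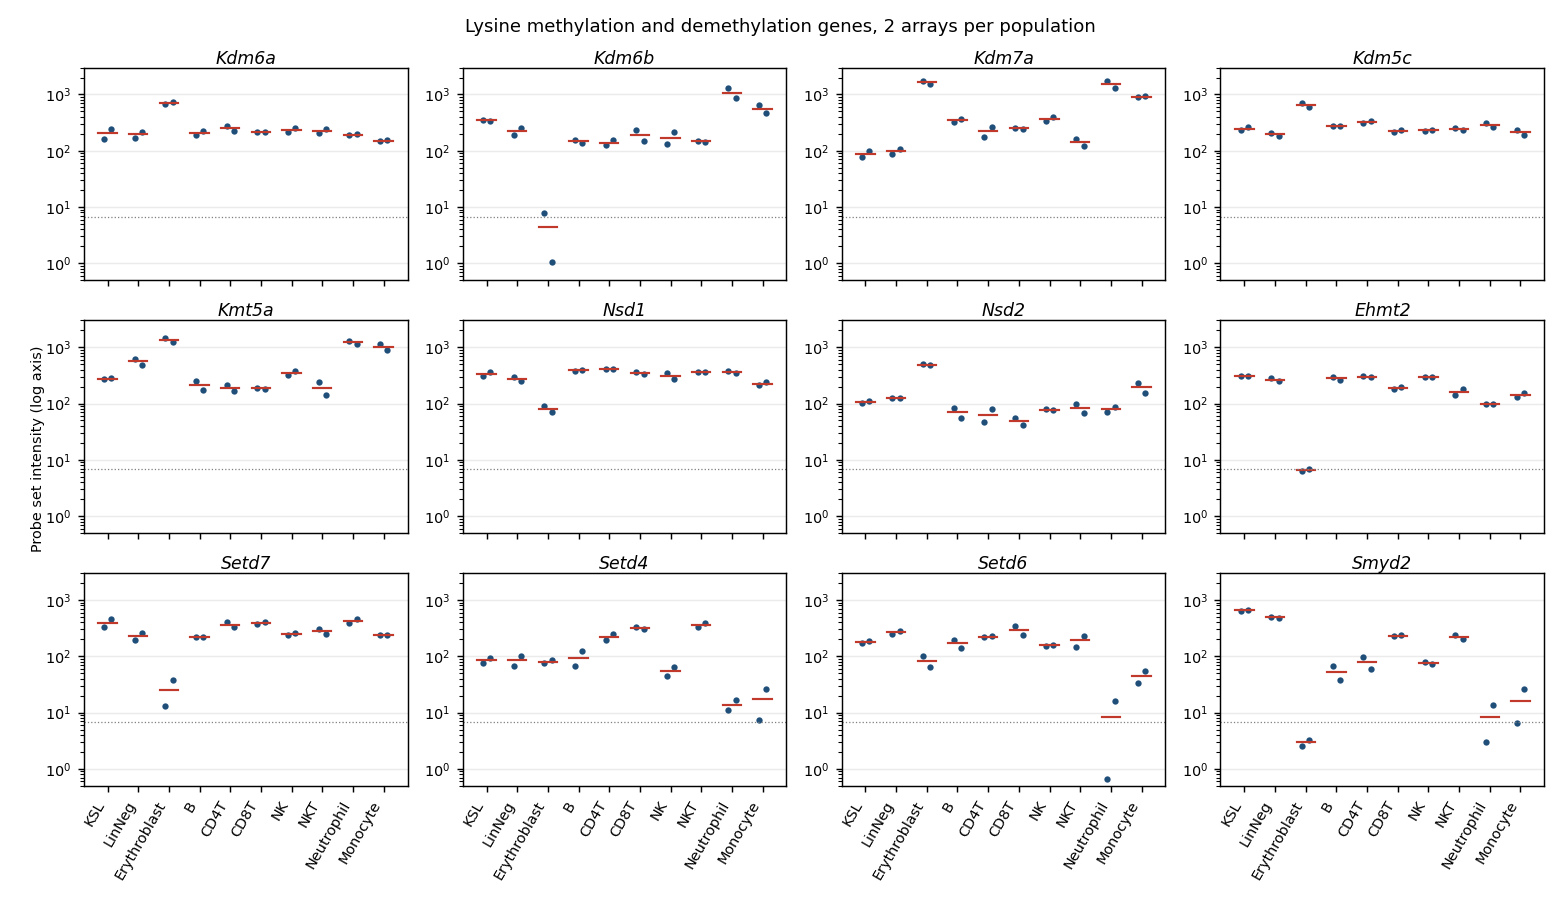
Probe set intensity (log axis) of 12 lysine methylation and demethylation genes in each of the 20 arrays; points are the 2 arrays of a population, red lines their mean, and the dotted line is the pseudocount of 6.75. Kdm6a and Nsd2 are highest in Erythroblast, Kdm6b, Ehmt2, Nsd1 and Setd7 lowest there, and Smyd2 is highest in KSL and LinNeg.

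The brightest probe set was set against the others of the same gene. Members and comparisons made 68 called pairs, of which 46 had a further probe set above the filter. Of 99 such probe sets, 89 had the same sign as the brightest and 10 the opposite one. Apart from those named above, the opposite signs were of Kdm6b (-0.01) and Prmt7 (-0.64) in KSL minus the mature mean, Setd6 in lymphoid minus myeloid (-0.96), Nsd2 in Neutrophil minus Monocyte (0.07) and Kmt5b in Erythroblast (0.15). With the mean of all probe sets of a gene, 50 of the 68 calls were kept, 17 were lost and 1, Kmt2d in Erythroblast, changed sign. That mean includes probe sets below the filter, such as all the further ones of Ehmt2 and Prmt9, so a lost call need not mean that bright probe sets disagree. In KSL minus the mature mean the lost calls were those of Prmt7 (0.51, adjusted p = 0.0815), Kdm6b (0.51), Ehmt2 (0.69), Suv39h2 (0.81) and Smyd3 (0.93). In Erythroblast they were those of Prmt3 (-0.31, adjusted p = 0.201), Kdm5c (0.34), Prmt9 (-0.48), Kmt2e (-0.71) and Prmt7 (-0.74). In Neutrophil minus Monocyte they were those of Smyd4 (-0.72, adjusted p = 0.12), Setd6 (-0.73, adjusted p = 0.066), Kdm5b (0.90) and Nsd2 (-0.995). The remaining lost calls were those of Kdm7a (0.45) and Prmt2 (-1.24, adjusted p = 0.066) in NK minus NKT, and of Smyd5 in lymphoid minus myeloid (0.52).

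**Figure D5:**
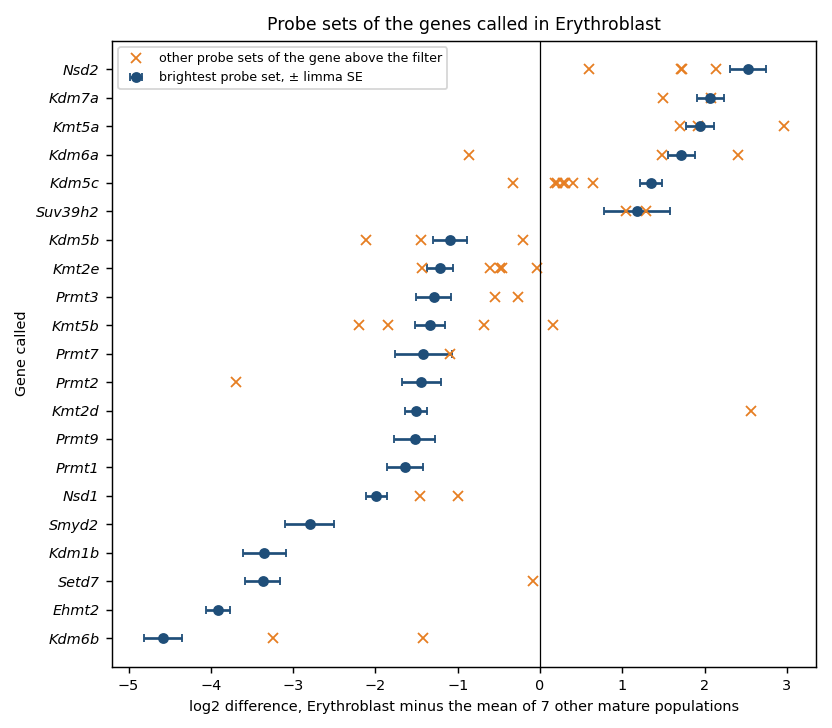
Log2 difference of Erythroblast minus the mean of the 7 other mature populations (horizontal axis) for the 21 members called there. Filled points with bars are the brightest probe set ± limma SE, crosses the gene's other probe sets above the filter; Nsd2 and Nsd1 have all crosses on the side of their point, while Kmt2d has its cross on the other side of 0.

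Partner genes from fixed lists were read in the same model. Of 11 subunits of the COMPASS complexes, which carry the H3K4 methyltransferases, 3 were higher in Erythroblast (Hcfc1 by 2.12 ± 0.12, Psip1 by 2.09 ± 0.14 and Paxip1 by 1.70 ± 0.33) and none lower, with a list median of 0.10, where 17.5% of all genes were higher. In KSL against the mature mean 3 were higher (Ash2l, Men1 and Paxip1; 15.8% of all genes), and in Neutrophil against Monocyte 3 were lower (Ash2l, Dpy30 and Paxip1; 9.46% of all genes). Of 8 partners of Kdm1a, 1 was higher and 2 were lower in Erythroblast, against 17.5% and 28.4% of all genes, so the list does not stand apart from them. Gfi1b, a repressor of the erythroid and megakaryocytic lineages that recruits Kdm1a, was higher in Erythroblast at 1045 against 15.1 in the other mature populations (5.70 ± 0.26, adjusted p = 3.3e-13). Its relative Gfi1 was lower there at 4.39 against 232 (-4.18 ± 0.22), as was Phf21a (-3.76 ± 0.26).

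Of the 4 partners of Prmt5, Wdr77 (-1.53 ± 0.22) and Clns1a (-1.24 ± 0.12) were lower in Erythroblast (28.4% of all genes were), and none was called in the KSL comparisons or between lymphoid and myeloid cells, where Prmt5 itself differed. Of 5 genes of the methyl donor cycle tested, 3 were higher in KSL than in the mature mean (15.8% of all genes were) and the same 3 were higher in lymphoid than in myeloid cells (17.4% of all genes). They were Mtap, which salvages methionine (2.24 ± 0.44 and 3.23 ± 0.35), Ahcy, which clears S-adenosylhomocysteine (2.11 ± 0.20 and 1.87 ± 0.16), and Mtr, methionine synthase (1.27 ± 0.24 and 1.61 ± 0.19). Of 7 readers and cofactors of H3K9 methylation, 2 were higher in Erythroblast, Cbx5 (HP1α, 2.88 ± 0.20) and Zfp644 (1.77 ± 0.23), and none lower, against 17.5% and 28.4% of all genes. Among 8 methylation enzymes with other names, 2 were higher and 2 lower in Erythroblast, against 17.5% and 28.4% of all genes. The arginine methyltransferase Carm1 (2.51 ± 0.17) and the H3K79 enzyme Dot1l (1.18 ± 0.24) were higher, while Prdm2 (-2.01 ± 0.14) and Prdm9 (-1.58 ± 0.44) were lower. Of 6 demethylases with other names, Jmjd1c (-3.01 ± 0.15) and Jmjd6 (-2.62 ± 0.23) were lower in Erythroblast and none higher, against 28.4% and 17.5% of all genes.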

How the data were processed

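The authors deposited an intensity on a linear scale for each probe set of each array. Per the labels' protocols, RNA was extracted with ISOGEN and biotinylated cRNA was made from 3000 cells in 2 amplification cycles, which favours 3′ ends. For summarising the probes and scaling the deposited intensities, no software is named in the labels. In every array the mean without the lowest and highest 2% was 100, and array medians ran from 20.3 to 26.8. That scaling hides differences in total RNA per cell. Levels of different genes are not comparable.

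From these the log2 of intensity plus 6.75 (the 25th percentile of the deposited values) was computed, which understates changes at low intensity. Each gene was represented by the probe set with the highest mean over the 20 arrays on this scale. Genes whose highest population mean passed 4.89 on the log2 scale (the median value) were tested. One limma model (version 3.58.1, R 4.3.3; lmFit and eBayes with a trend) was fitted to all 20 arrays with 10 groups taken from the sample titles, giving 10 residual degrees of freedom, and was tested on simulated data. Arrays number 2 per population, which limits precision.

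The members and lists were chosen with earlier results of these data known. Any member could be named; values in every array were given for members called in 1 population against each of the other 9, for up to 5 of the largest calls per direction and comparison, and for Kdm5c, Kdm5d and Kdm6a. Genes outside the family came from the lists, at most 3 per list and comparison. The alternatives were other pseudocounts, scalings, filters and probe set rules, no trend, the replicate number as a block and leaving out each array. Choosing probe sets by linear intensity, and leaving NK or Erythroblast out of a mean, were added after seeing the data.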

Additional observations from a re-analysis of the deposited data

How the results depend on the processing

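All 68 calls of a member kept their direction and call with the replicate block (13 members for KSL against the mature mean, 17 for lymphoid against myeloid, 21 for Erythroblast, 46 in the F test). Same-numbered arrays did not deviate together (r from -0.0939 to 0.206 over 45 pairs of populations, 1 of them over 0.1). These values cannot tell whether such arrays share an animal, which the labels do not give. With a pseudocount at the 5th percentile 64 of 68 calls were kept, and 1 member was called for KSL against LinNeg, 1 for B against T and 1 for CD4T against CD8T. Quantile normalization kept 61 calls and median centring 62. Both lost Kmt2a in lymphoid against myeloid, Kdm5b in Erythroblast, Kdm8 in NK against NKT and Kdm1b in Neutrophil against Monocyte; quantile normalization also lost Prmt3 and Kmt5b in Erythroblast and Smyd5 in lymphoid against myeloid, and centring Prmt2 in NK against NKT and Smyd4 in Neutrophil against Monocyte. Each called 1 member for KSL against LinNeg, and centring called 4 members higher in 1 population than in each of the others, against 2. Leaving out x and s probe sets took out Prmt5, whose only probe set is of that kind, and left 1 call for CD4T against CD8T. Its calls were therefore not checked by that setting. Without the trend 1 call was left there, as Smyd2 lost its own (adjusted p = 0.0635). The mean of all probe sets of a gene kept 50 calls and gave 8 for KSL against the mature mean, 3 for NK against NKT, 4 for Neutrophil against Monocyte, and 1 higher and 4 lower in 1 population than in each of the others. Kmt2d in Erythroblast reversed to 0.53 with that mean, and Smyd5 in KSL against the mature mean to -0.21 without x and s probe sets, where the brighter of its 2 remaining probe sets was used (the other gave 1.88). Leaving out 1 array at a time gave 0 to 1 calls for KSL against LinNeg, 0 to 1 for CD4T against CD8T, 2 to 4 for NK against NKT, 4 to 7 for Neutrophil against Monocyte, 20 to 24 for Erythroblast, 16 to 18 for lymphoid against myeloid, 13 to 13 for KSL against the mature mean, 2 to 3 higher and 6 to 9 lower in 1 population than in each of the others. The cause of these changes was not tested. With 2 arrays per population no array could be tested as an outlier, and values near the pseudocount have no order.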
